A study of Rattus norvegicus with 16 samples.

Results

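The genes described here are 120 of the 32883 gene rows counted in a rat hypothalamus series, chosen because their counts were low in the rats exposed to a chemical mixture in the F1 generation and present in every other library. The choice used CPM, a gene's count divided by the sum of all gene counts of its library and multiplied by 1000000. A gene had to reach at least 1 CPM in each of the 12 libraries outside the F1 exposed group, which 12579 genes did. These were ranked by the lowest CPM of the 12 libraries divided by the highest CPM of the 4 F1 exposed libraries plus 0.1, and the first 120 were taken. The members were thus chosen by their CPM in all 16 libraries, so their level in F1 exposed rats against any other group is given as a description with no test.

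RNA was sequenced from hypothalamus, in tissue the labels call MBH-PoA, of female Wistar rats aged 21 days. The mothers' line ate food with either vehicle or a mixture of chemicals that disrupt hormone signalling (EDC, endocrine disrupting chemicals), starting 2 weeks before gestation and ending with lactation. The groups are F1 control (vehicle) and F1 EDC, whose rats were exposed in utero, and F3 control (vehicle) and F3 EDC, whose exposure was ancestral, with 4 libraries each. The 8 EDC samples carry titles that begin with the word Control, whereas their source and treatment fields name the mixture, and those fields set the groups. The labels do not say how the rats were related, so p-values measure only the spread between these samples. Gene counts per library ran from 5655354 to 35981898.

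The hypothalamus is the part of the brain that joins the nervous system to hormone release. Its neurons set reproduction, feeding, growth, water balance and the stress response, largely through peptides that act on the pituitary gland. A block of this tissue also holds oligodendrocytes, which wrap axons in myelin, astrocytes, microglia and vessels. Endocrine disrupting chemicals are substances that interfere with hormone synthesis, transport or receptors. A count from such a block cannot tell fewer cells of a type from less RNA in each cell.

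The files list Ensembl IDs without gene names, and 0 of the 120 IDs were found in the gene table used here. The roles of the members, their chromosomes and the tissue's marker genes are therefore not described. The 2 members ranked highest are named by ID, and the others are described by their level and rank.

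The word "lost" goes further than the counts. Mean CPM in F1 EDC was between 0.279% and 18.7% of the F1 control mean, with a median of 7.66% over the 120 members. Across all 12579 genes with at least 1 CPM in the 12 libraries, the same median was 106%. Less than 1% remained for 12 members, less than 5% for 44 and less than 10% for 79. No member stood at 0 counts in all 4 F1 EDC libraries, and 13 members were at 0 in at least 1 of them. In 95 members every F1 EDC library held more than 3 counts, so a low but countable signal was left for most of the list. In 6 members no F1 EDC library held more than 3 counts, and 19 members lay on both sides of that floor. The floor of 3 counts corresponds to 0.217, 0.228, 0.304 and 0.0834 CPM in F1 EDC replicates 1 to 4, and it covers counting error only.

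**Figure D1:**
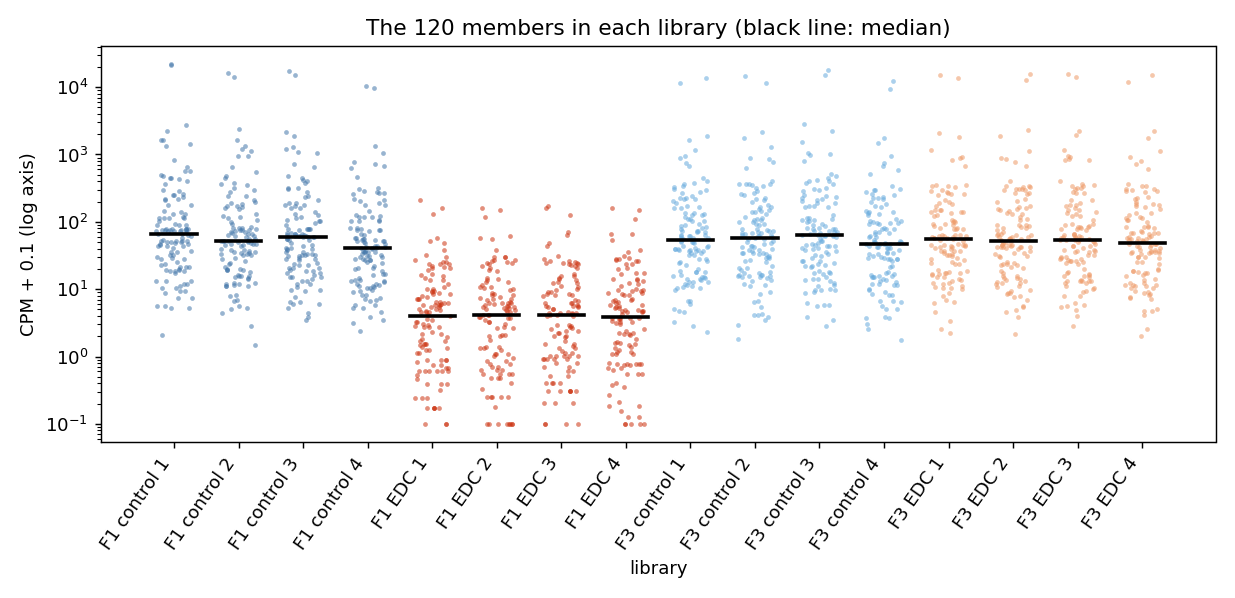
CPM plus 0.1 on a log axis of the 120 members (points) in each of the 16 libraries, with the median as a black line. The median lies between 3.71 and 4.07 CPM in the F1 EDC libraries and between 40.3 and 66.3 CPM in the other 12.

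The summed level of the members was nearly the same in the 4 F1 EDC rats, while single members varied more. It was 1402, 1359, 1405 and 1384 CPM in F1 EDC replicates 1 to 4. It was 66854, 50318, 51861 and 32628 CPM in F1 control. Each of the 120 members was chosen to be lower in every F1 EDC library than in the 12 others. The gap between these sums therefore describes the choice. In F3 control it was 42637, 44540, 54691 and 35957 CPM, and in F3 EDC 46224, 46489, 48437 and 43524 CPM. The members thus made up 3.26% to 6.69% of the gene counts in the 12 other libraries and 0.136% to 0.141% in F1 EDC. The 4 exposed libraries differed from each other by a factor of 1.03 in this sum, whereas the 4 F1 controls differed by a factor of 2.05. Taken singly, 71 of the 120 members stayed within 2-fold across the 4 F1 EDC libraries, a count that was not made over all genes.

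The share of multimapping reads was also high in F1 EDC, at 51.6%, 46.7%, 44.9% and 41.8% in replicates 1 to 4. The F1 controls had 36.3%, 19.9%, 43.2% and 41.6%. The F3 controls had 43.3%, 33.4%, 16.5% and 30.1%, and the shares were 15.7%, 23.1%, 15.7% and 44.4% with F3 EDC. Outside F1 EDC, 2 libraries of F1 control and 1 of each F3 group lay above 40%. The members summed to 51861 and 32628 CPM in F1 control replicates 3 and 4. They summed to 42637 CPM in F3 control replicate 1 and 43524 CPM in F3 EDC replicate 4. The part of multimapping in the low levels of F1 EDC was not tested further.

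Abundant genes were well represented. The median member had a mean of 53.99 CPM over the 12 libraries, against 26.3 CPM over the 12579 genes. Members at 1000 CPM or more numbered 5, which is 4.17% of the list, where 0.461% of the 12579 genes reach that level. Another 33 lay between 100 and 1000 CPM, 70 between 10 and 100 CPM, and 12 under 10 CPM. The rule itself favours abundant genes, because the added 0.1 CPM weighs more on scarce ones. The remaining share of the F1 control level had a median of 1.05% in the 5 members at 1000 CPM or more, 7.67% from 100 to 1000 CPM, 8.17% from 10 to 100 CPM and 3.24% under 10 CPM.

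A pair of genes carried most of the counts. The most abundant member, ranked 8, stood at 22075, 16377, 17410 and 10234 CPM in F1 control and at 211, 158, 173 and 149.5 CPM in F1 EDC. Its levels in F3 were 13596, 14815, 18191 and 12136 CPM in control and 15035, 15660, 15678 and 14868 CPM in EDC. The next most abundant, ranked 6, stood at 20959, 14356, 15208 and 9783 CPM in F1 control and at 158, 118, 124 and 111 CPM in F1 EDC. In F3 it was at 11526, 11669, 14977 and 9312 CPM in control and at 13783, 12917, 14094 and 11912 CPM in EDC. Both genes kept the same order of the 4 F1 controls, with replicate 1 highest and replicate 4 lowest, and both were highest in replicate 1 among the F1 EDC libraries. Together they held 58.9% to 64.4% of the members' counts in the 12 other libraries. Without them, the remaining 118 members summed to 12611 to 23821 CPM in the 12 libraries and to 1033 to 1124 CPM in F1 EDC.

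ENSRNOG00000021472 ranked first, with a ratio of 138 by the rule. It stood at 249, 165.5, 189 and 123 CPM in F1 control and at 0.795, 0.760, 0.304 and 0.167 CPM in F1 EDC. The exposed values rest on 11, 10, 3 and 6 counts. The exact 95% Poisson interval, which covers counting error only, was 0.397 to 1.42 CPM in replicate 1 and 0.0612 to 0.363 CPM in replicate 4, so these libraries differed beyond counting error. In F3 the gene was at 168, 178, 213.5 and 132 CPM in control and at 169, 168.5, 179 and 153 CPM in EDC. The F3 groups overlapped, with a log2 change of -0.13 (edgeR adjusted p = 0.839, SE 0.23). Its F3 and F1 controls overlapped as well, at a log2 change of -0.0026 (edgeR adjusted p = 0.994, SE 0.23).

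ENSRNOG00000015445 ranked next, also with a ratio of 138. Its level stood at 1413, 1124, 1071 and 628 CPM in F1 control and at 4.41, 3.80, 4.46 and 3.31 CPM in F1 EDC, on 61, 50, 44 and 119 counts. In F3 it was at 954, 869, 1041 and 741 CPM in control and at 877, 874, 830 and 812 CPM in EDC. The 4 F3 EDC values lay within the range of the F3 controls, and the log2 change was -0.16 (edgeR adjusted p = 0.747, SE 0.20). Between F3 control and F1 control it was -0.16 (edgeR adjusted p = 0.620, SE 0.20).

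The ratio fell steeply down the ranking. It was above 20 in 22 members and above 10 in 33, and under 5 in 37, with a median of 6.18. The last members inside, ranks 118 to 120, had ratios of 3.84, 3.82 and 3.81, and the next genes outside, ranks 121 to 123, had 3.80, 3.78 and 3.74. There was no step in the values at the end of the list. Beyond the members, 9 of the 12579 genes also had an F1 EDC mean under 10% of the F1 control mean.

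**Figure D2:**
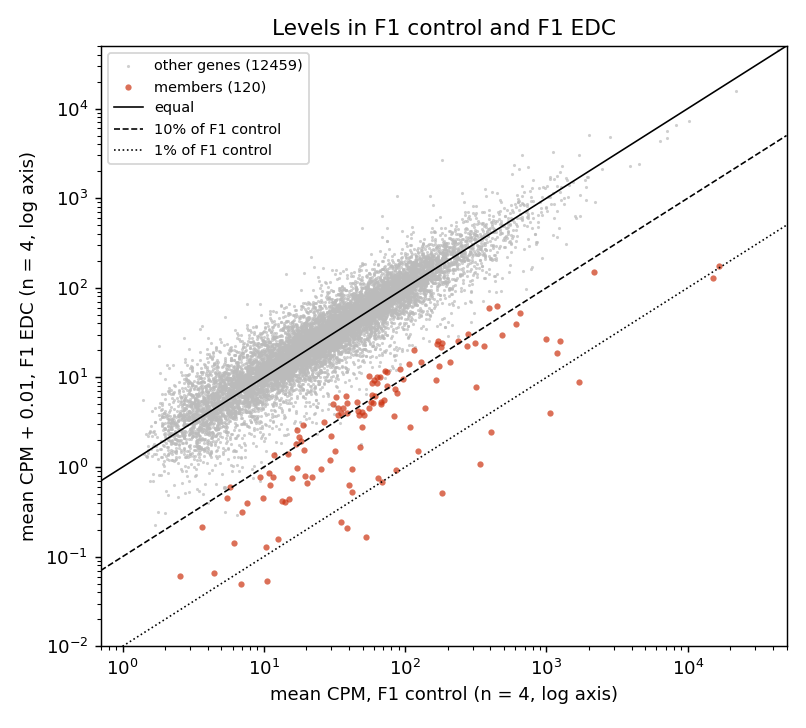
Mean CPM in F1 EDC (plus 0.01) against mean CPM in F1 control on log axes, n = 4 libraries each, for the 12579 genes with at least 1 CPM in the 12 other libraries. Of the members (red), 79 lie under the dashed line at 10% of the F1 control level, and so do 9 of the other genes (grey).

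On the log2 scale of the edgeR fit over 15366 genes, the members' median difference between F1 EDC and F1 control was -3.87, with a range from -8.98 to -2.52, and the median over all genes of the fit was -0.0042. The rule used this contrast, so these values describe the choice.

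The F3 comparison asks whether the same genes differed after ancestral exposure. It is not the contrast that chose them, and the rule treats all 8 F3 libraries alike. The rule does rank by the lowest value over the 12 libraries, with F3 EDC among them. A gene much lower in F3 EDC would thus rank lower or drop out, so the choice itself limits which members can be called here. The same limit holds for F3 control against F1 control below. By edgeR's quasi-likelihood test, 0 of the 120 members passed an adjusted p of 0.05, where 2.94% of all tested genes did (1.07% higher and 1.87% lower), and 9 members had an unadjusted p under 0.05, where 16.6% of all genes did. DESeq2 called 1 member, higher in EDC (0.833% of the members). It called 775 genes, which is 7.53% of those to which it gave an adjusted p. Limma voom with sample quality weights called 11, of which 2 were higher and 9 lower, or 9.17% of the members, where it called 9.81% of all genes. In none of these tests was the share of members called above that of all genes. The F3 EDC and F3 control values did not overlap in 2 members that were higher and 1 that was lower, where 5.76% and 3.78% of all tested genes did not overlap.

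The F3 fold changes of the members were small. Their median log2 fold change was -0.11, with quartiles of -0.23 and 0.01 and all values between -0.58 and 0.63, against a median of -0.03 over all tested genes. On the scale of the test 84 members were below 0 and 36 above, where 45.0% of all tested genes were above 0. On plain CPM, 67 members had a lower mean in F3 EDC, a count that was not made over all genes. The summed level was 46169 ± 2021 CPM in F3 EDC and 44456 ± 7752 CPM in F3 control (SD, n = 4). The median was also below 0 with RLE factors, at -0.10, and with upper quartile factors, at -0.07. The sum, which a few abundant members dominate, is on plain CPM without such factors. Its direction can therefore not be set against that of the median. Without F3 control replicate 4, the library with the lowest summed level in F3, the median was -0.21, and without F3 control replicate 3, the highest, it was -0.05.

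**Figure D3:**
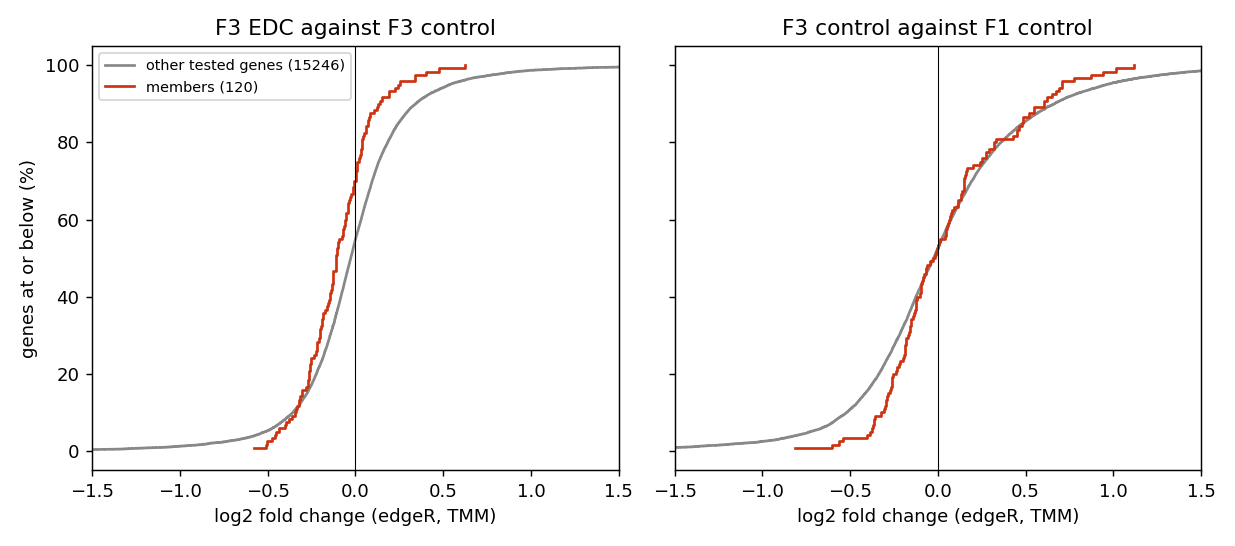
Cumulative percent of genes at or below each log2 fold change, for the 120 members (red) and the other tested genes (grey), in F3 EDC against F3 control (left) and F3 control against F1 control (right). The members' median is -0.11 on the left and -0.02 on the right.

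Vehicle rats of the F3 and F1 generations were compared next. The file names carry one lane number for F1 and another for F3, so generation and that number cannot be told apart. The stated 4 samples per lane conflicts with 1 lane for 8 libraries, so which libraries shared a lane is unclear. Here 16 of the 120 members were called higher in F3 control and 0 lower by edgeR, where 27.5% of all tested genes were called, 14.6% higher and 12.9% lower. The 16 are 13.3% of the members. The median log2 fold change of the members was -0.02, as over all tested genes, and the range was -0.82 to 1.12. Values of F3 control and F1 control did not overlap in 8 members that were higher and 1 that was lower, where 10.1% and 15% of all tested genes did not overlap.

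That all called members were higher rested on single libraries. Without F1 control replicate 4, edgeR called 17 members, 11 higher and 6 lower, or 14.2% of the members where it called 26.1% of all genes. Without F3 control replicate 3 it called 12 higher and 2 lower (11.7%, where 25.2% of all genes were called), and without F3 EDC replicate 3 it called 16 higher and 1 lower (14.2%, where 26.8% were). Without F3 control replicate 1 it called 10, all higher (8.33%, where 24.1% were). A fit chosen after seeing the data dropped the 8 libraries with more than 40% multimapping reads, which are all 4 of F1 EDC, 2 of F1 control and 1 of each F3 group. With 2 F1 controls and 3 F3 controls left, it called 9 members higher and 1 lower (8.33%, where 21.2% of all genes were called).

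The 16 members that rose between the controls were spread over the ranking, from rank 12 to rank 114, and 1 was among the first 20. Their F1 control means ran from 9.43 to 180 CPM, and their log2 fold changes from 0.45 to 1.12. The member with the highest fold change, ranked 114, stood at 231, 198, 188 and 104 CPM in F1 control and at 343, 400, 450 and 292 CPM in F3 control. This is a log2 change of 1.12 (edgeR adjusted p = 0.00223, SE 0.23), and the groups did not overlap. The member ranked 12 stood at 48.7, 34.9, 34.9 and 22.1 CPM in F1 control and at 62.8, 79.0, 72.9 and 58.4 CPM in F3 control, a log2 change of 1.02 (edgeR adjusted p = 0.00325, SE 0.22), again with no overlap. The smallest adjusted p, 4.16e-05, belonged to the member ranked 85, with F1 control at 62.9 ± 6.55 CPM and F3 control at 96.1 ± 12.7 CPM (SD, n = 4). In all 16 the mean of F3 EDC also lay above that of F1 control, and in 0 of them above that of F3 control. The F3 EDC mean therefore stood between both controls for each of the 16. These were picked for high values in F3 control, and their difference between F3 EDC and F3 control did not pass the threshold.

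The members varied together between rats of the same control group. In F1 control replicate 1, 108 of the 120 members lay above their own group mean on the log2 scale, and in replicate 3 it was 99. In replicate 2 the number was 29 and in replicate 4 it was 12. The median deviation was 0.46, -0.11, 0.13 and -0.47 in replicates 1 to 4, where the median over all tested genes was within 0.03 of 0 in each. F3 control showed a like spread, with 64, 93, 104 and 11 members above the group mean and median deviations of 0.02, 0.09, 0.22 and -0.33. In F3 EDC the numbers were 50, 60, 48 and 73, and the median deviations lay between -0.04 and 0.03. The numbers were 67, 65, 60 and 60 in F1 EDC, where some values rest on few counts. In each control group 1 library thus had only 11 or 12 members above the mean, whereas the lowest number in F3 EDC was 48. Of all tested genes, 48.5% lay above the group mean in F1 control replicate 4 and 46.1% in F3 control replicate 4.

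**Figure D4:**
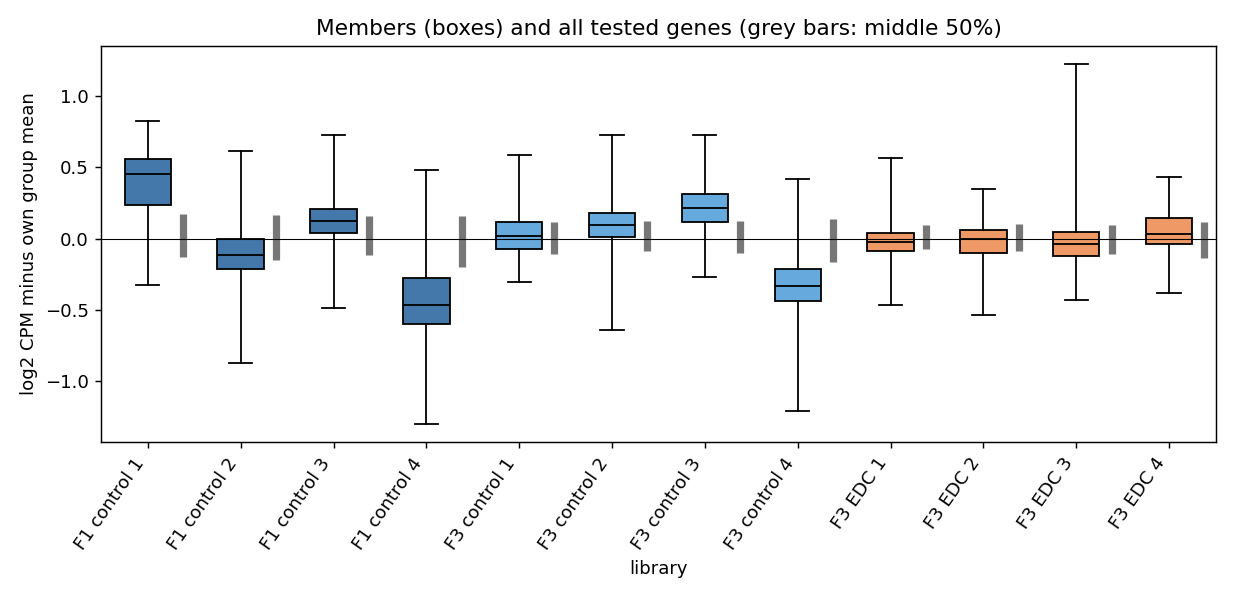
Log2 CPM (TMM factors, prior count 2) of the 120 members minus the mean of the library's own group, as boxes (middle 50%, line at the median, whiskers to the lowest and highest member), in the 12 libraries outside F1 EDC. Grey bars give the middle 50% of all tested genes. Replicate 4 of F1 control (median -0.47) and of F3 control (median -0.33) lie lowest, and F1 control replicate 1 (0.46) highest.

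Set against each other, F1 control replicate 1 was above replicate 4 in 107 of the 120 members, with a median ratio of 1.80 on plain CPM. Of the 12579 genes, 44.7% were higher in replicate 1, and the median ratio was 0.968. F3 control replicate 3 was above replicate 4 in 110 members, at a median ratio of 1.43, where 50.1% of the 12579 genes were. These library pairs were picked after their values were seen. The members that went against the pattern were partly shared: 12 lay above their group mean in F1 control replicate 4 and 11 in F3 control replicate 4, and 5 were in both lists, 41.7% of the first and 45.5% of the second. None of the 12 (0) was among the 16 members that rose from F1 control to F3 control, which are 13.3% of the list. F1 control replicate 4 enters both lists and the numbers are small, so nothing is read from this.

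The spread between replicates differed accordingly. The median coefficient of variation of the members was 25.6% in F1 control, 17.4% in F3 control and 9.18% in F3 EDC, where the other genes of the 12579 had medians of 15.1%, 10.8% and 10.8%. In F1 EDC it was 23.6%, where the other genes had 11.2%, and many of the members' values there rest on few counts. Over the 12 libraries the highest value of a member was 2.12 times the lowest in the median, where it was 1.77 times over the 12579 genes. Over the list it lay between 1.26 and 4.32 times.

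Library measures beside this pattern were as follows. F1 control replicate 4 had the fewest gene counts of all libraries, 5655354, and supplied the lowest of the 12 values for 67 members (55.8%), and for 13.7% of the 12579 genes. F3 control replicate 4 had 10987632 gene counts and supplied the lowest value for 23 members (19.2%) and for 10.03% of the 12579 genes. F3 EDC replicate 4, with 10285902, did so for 4 members (3.33%) and for 19.5% of the 12579 genes. In the multimapping shares given above, replicate 4 ranked next to highest in F1 control and next to lowest in F3 control. The part of depth and of multimapping in the pattern was not tested.

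The counts on the opposite strand, which the rule did not use, did not fall with the members. Over the 120 members they summed to 59.98, 59.2, 59.8 and 63.4 CPM (scaled to the own-strand gene counts) in F1 EDC and to 46.6, 46.7, 35.4 and 47.4 in F1 control. In F3 they were 47.0, 40.4, 42.5 and 61.2 in control and 50.4, 49.3, 48.4 and 49.7 in EDC. Only 5 members had at least 10 opposite-strand counts in all 16 libraries, and the 5 with the most supplied 72.8% of these counts in F1 EDC. For the 5 members with 10 counts everywhere, the median log2 ratio of F1 EDC to F1 control was 0.31 on the opposite strand and -3.28 on their own. Over all 690 genes with such counts the opposite-strand median was 0.02. Which genes lie on the opposite strand at these places was not analysed here.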

How the data were processed

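The authors' deposited files hold whole-number read counts for 32883 gene rows in 3 columns (unstranded and the 2 strands), laid out as STAR does, an aligner of unstated version. Per the submitters' processing notes, Trimmomatic 0.33, TopHat2 2.1 and build rn6 were used. Summary lines for reads not assigned to a gene (44.1% to 75.2% of reads) stayed out. Column 4 was used, as the rule states.

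CPM for the rule used plain library sums. Tests used edgeR 4.0.16 in R 4.3.3: TMM factors, filterByExpr (count minimum 10, 15366 genes, all 120 members among them), the robust quasi-likelihood test on 4 group means over 16 libraries, and Benjamini-Hochberg adjustment over all tested genes, two-sided. SEs were obtained by dividing fold changes by the root of F. The procedure was tested on simulated data. Alternatives used DESeq2 1.42.0, limma 3.58.1, other scalings, filters and columns, and left out each library in turn.

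The members and the comparisons were chosen with earlier results of these data known. The planned rule names the 2 members ranked highest where no symbols are at hand. The 29 planned gene lists could not be applied, since 0 of the 32883 IDs matched a gene table of 47357 genes (GRCr8). For the same reason promoter sequences were not used.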

Additional observations from a re-analysis of the deposited data

Results flagged for a closer look

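Opposite-strand counts of the members come from a column the main comparisons do not use. Scaled to the own-strand gene counts, they averaged 60.6 CPM in F1 EDC, and each F1 EDC library lay above each F1 control. F3 control replicate 4, at 61.2 CPM, lay within the F1 EDC range, and the other F3 libraries lay below that range. In F1 control, replicate 3 stood apart from the other replicates in this measure, at 35.4 CPM. It was the only one of 32 sets of 4 values with such a gap, and chance gives about 1 in 20.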

How the results depend on the processing

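In F3 EDC against F3 control, where edgeR called 0 members, DESeq2 called 1 and voom 11. A stricter filter (mean log2 CPM of 1) gave 1 member, 0.84%, where 3.16% of all genes were called, and a fit of only the 8 libraries compared gave 3, 2.5%, where 4.16% were. Leaving out single libraries gave 0 to 1 (at most 0.833%, where 0.222% to 3.49% of all genes were called). In F3 control against F1 control, with 16 members called, a fit of the 8 libraries compared gave 10 (8.33%, where 23.5% of all genes were called). The fit without the libraries over 40% multimapping also gave 10 (8.33%, where 21.2% were). Leaving out single libraries gave 10 to 21 (8.33% to 17.5%, where 23.3% to 28.1% were). The cause of these changes was not tested. The remaining level in F1 EDC, a median of 7.66% of F1 control, was 6.99% with TMM factors, 8.04% with unstranded counts and 6.77% to 8.13% without single F1 libraries. Of the 120 members, 107 stayed with an added 1 CPM in the rule, 118 with 0.01, 117 with TMM factors, 109 with a minimum of 5 CPM, 115 with unstranded counts and 108 to 120 without single libraries. Over all tested genes, same-numbered libraries did not deviate together (correlations from -0.12 to 0.0947), so the numbers were not taken as pairs. Among the members alone, replicate 4 had the lowest median deviation in F1 control (-0.47) and F3 control (-0.33), and the highest in F3 EDC (0.03). With the replicate block the counts were 0 in F3, where 2.52% of all genes were called, and 16 between the controls (13.3%, where 27.1% were). The median log2 fold changes were then -0.10 in F3 and -0.0047 between the controls. Precision for the scarce members is limited by the few counts in F1 EDC.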
